A study of Mus musculus with 6 samples.

Results

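Thyroid hormone receptor α (TRα) was mapped by chromatin immunoprecipitation and sequencing in gastrocnemius, the large calf muscle, of mice aged 6, 15 and 21 months, with 2 mice per age and 1 peak list per mouse. The groups are labelled youth, mid and old, and age is the only difference between them that the labels give. Strain, sex, genotype and treatment are not given in the labels. Peaks of the 6 lists were merged wherever they overlapped by at least 1 bp, and the regions described here are those that held a peak of at least 5 of the 6 lists. They numbered 260 of 458111 merged regions, which is 0.0568%, and 112 of them held a peak of every list while 148 held a peak of 5. Presence of peaks chose these regions, and every fold, pileup and q below comes from the same peaks. These values are therefore given as a description and were not tested. Differences between ages were not tested either, since the regions were chosen from the lists.

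TRα is a nuclear receptor that sits on DNA with or without its hormone, usually paired with a retinoid X receptor. Without hormone it tends to hold corepressors at its target genes, and with hormone it exchanges them for coactivators. In skeletal muscle it is the main thyroid hormone receptor, and the hormone is known there for its effects on fibre type, calcium handling and energy use. A ChIP-seq peak is a stretch where immunoprecipitated fragments pile up beyond the input, which is DNA of the same chromatin without immunoprecipitation. Repeated sequence that is collapsed in a genome assembly can draw many fragments in both libraries. Whole muscle was used, so a change in the mix of cell types and a change in occupancy per cell cannot be told apart, and peak lists give no marker levels by which the tissue label could be checked. Sequences of the regions were not analysed here.

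For each peak, the authors' deposited fold is the pileup plus 1 over the local input background plus 1. The pileup counts the fragments that cover the summit. Whether pileups were scaled between mice is not stated in the sources used here, so the order of mice in 1 region is read from ranks within each list. Over the region peaks, the median pileup was 16 and 31 fragments in the mice of 6 months, 23 and 20 in those of 15 months and 25 and 25.5 in those of 21 months. The lists held 29405 to 106152 peaks. A background level of 3.23 to 5.49 fragments per kb, estimated from the lowest input background of each list, stands in for depth. The top value belonged to replicate 1 at 6 months, while no other list exceeded 4.03. The list of replicate 1 at 6 months stood apart, with a highest fold of 269 against 532 to 1543 in the other 5 lists and 44 peaks at folds of 10 or more where the others had 108 to 211. The main counts, the summit ranges by kind of region and the comparisons with 6 months are given with and without it.

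The 260 regions were of 3 kinds. In 106 regions (40.8%) the fold was at least 10 in the median list and the local input background was under 10 times the lowest level of the list. In 122 regions with the same limit on input the median fold was lower, between 5 and 10 in 57 and under 5 in 65. In 32 regions (12.3%) the input itself was at least 10 times the lowest level. These bounds on fold were set after the values were seen, and they cut a continuous range. The 106 regions of high fold had a median pileup of 62.8 fragments, the 57 of fold 5 to 10 had 12.5 and the 65 of fold under 5 had 8. Leaving out any single list gave 103 to 112 regions of high fold among the same 260, and 107 without replicate 1 at 6 months.

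**Figure D1:**
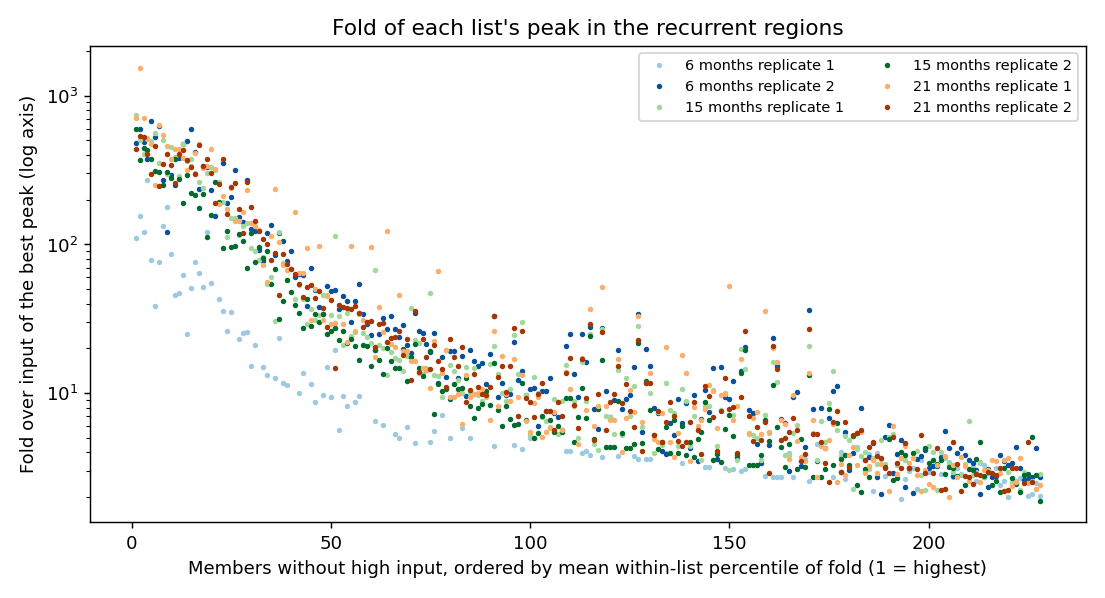
Fold over input of each list's best peak (log axis) in the 228 regions without high input, ordered from left to right by the percentile of fold within each list, averaged over lists; each point is 1 list in 1 region. On the left most points of 6 months replicate 1 lie below those of the other 5 lists, and toward the right the lists come together at folds under 5.

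The strongest peaks of each list lay mostly in these regions, although many peaks in the regions were weak. Of the 20 peaks of highest fold, 19 or 20 fell in these regions in every list. Of the 50 highest, 43 to 49 did, and of the 100 highest, 56 of replicate 1 at 6 months did and 73 to 89 of each other list. A q of at most 0.05 was reached by 87 of 154 region peaks in replicate 1 at 6 months, where 1.16% of all peaks reached it. The other lists had 190 to 218 such peaks in 249 to 258 regions, against 3.05%, 1.63%, 4.27%, 2.41% and 1.90% of all their peaks, from 6 months replicate 2 to 21 months replicate 2. Folds of 10 or more numbered 41 for replicate 1 at 6 months, where 0.0557% of all peaks had them. The other lists had 95 to 125, against 0.199%, 0.212%, 0.367%, 0.185% and 0.193% of all their peaks in the same order. The median fold of region peaks was 3.89 in replicate 1 at 6 months, against 2.73 over all its peaks, and 6.05 to 9.80 in the other lists, against 2.76 to 3.14. In 144 of the 260 regions (55.4%) q was at most 0.05 in every list with a peak, and in 17 it was so in none. Every list with a peak reached it in 13.2% of regions of 4 lists and 2.40% of those of 3 lists. The shares were 0.712% for 2 lists and 1.55% for 1 list. No list reached it in 177 of 378 regions of 4 lists and 1885 of 2420 regions of 3 lists.

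The region of highest rank lay on chromosome 3, 19920765 to 19921295 (GRCm39, as all positions here). Its pileups were 526 and 2157 fragments at 6 months, 1682 and 1409 in the mice of 15 months and 2223 and 1955 in those of 21 months, with replicate 1 before replicate 2 here and below. It was the peak of highest fold in both lists at 15 months and ranked 7 and 8 in the mice of 6 months and 3 and 5 in those of 21 months. Its 6 summits lay within 62 bp, and those of the 5 lists other than 6 months replicate 1 ran from 19920953 to 19920955. By rank within its list it was thus among the first 8 peaks in every mouse.

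The next region, on chromosome 19 from 40496848 to 40497534, held 735 and 4298 fragments at 6 months, 3062 and 3204 in the mice of 15 months and 4208 and 4210 in those of 21 months. All 6 summits fell on positions 40497148 and 40497149, 1 bp apart. Its fold of 1543 in replicate 1 at 21 months, against 155 to 596 elsewhere, came with an input background of 2.12 times the lowest level there and 3.15 to 9.81 times in the other lists. Pileup in that mouse was close to those of its age mate and of replicate 2 at 6 months.

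The region on chromosome 5 at 98905062 to 98905402 held 301 and 1430 fragments at 6 months, 1041 and 1058 in the mice of 15 months and 1448 and 1439 in those of 21 months. On chromosome 17, 50247948 to 50248506 held 781 and 3015, 2510 and 2173, and 2491 and 2858 in the same order, and it had the highest fold of any peak in replicate 1 at 6 months. On chromosome 9, 32265566 to 32267737 held 843 and 2556, 1979 and 1796, and 2007 and 2268 fragments. This region was 2172 bp wide, yet its 6 summits lay within 4 bp.

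The other regions in the first 12 of those in all 6 lists lay on chromosome 18 (24809970 to 24810622 and 42690953 to 42691863), chromosome 9 (83821286 to 83821805), chromosome 13 (110745922 to 110746266), chromosome 4 (155031365 to 155031938), chromosome 10 (92223663 to 92224292) and chromosome 14 (99702130 to 99702645). In each of these 7 the pileup was lowest in replicate 1 at 6 months, from 107 fragments on chromosome 14 to 551 on chromosome 13. By fold within its list, that mouse ranked 4 on chromosome 13 and 2 on chromosome 4, the best rank of any list there. The other lists ranked 5 to 19 and 7 to 34 in these regions. Among the rest it ranked 9 and 11 on chromosome 18, 21 on chromosome 9, 19 on chromosome 10 and 18 on chromosome 14. In none of the 7 was its rank the lowest of the 6 lists. Over the same 7 regions the other 5 lists had 499 to 2179 fragments. The region on chromosome 14 had an input background of 1.03 times the lowest level in its median list, and that on chromosome 13 had 5.40 times. A median background of at least 2 times the lowest level was found in 27 of the 106 regions of high fold. Such input was found in 0 of the 57 regions of fold 5 to 10 and in 30 of the 65 of fold under 5. The share over all merged regions is not given here. The part of input in these peaks was not tested.

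**Figure D2:**
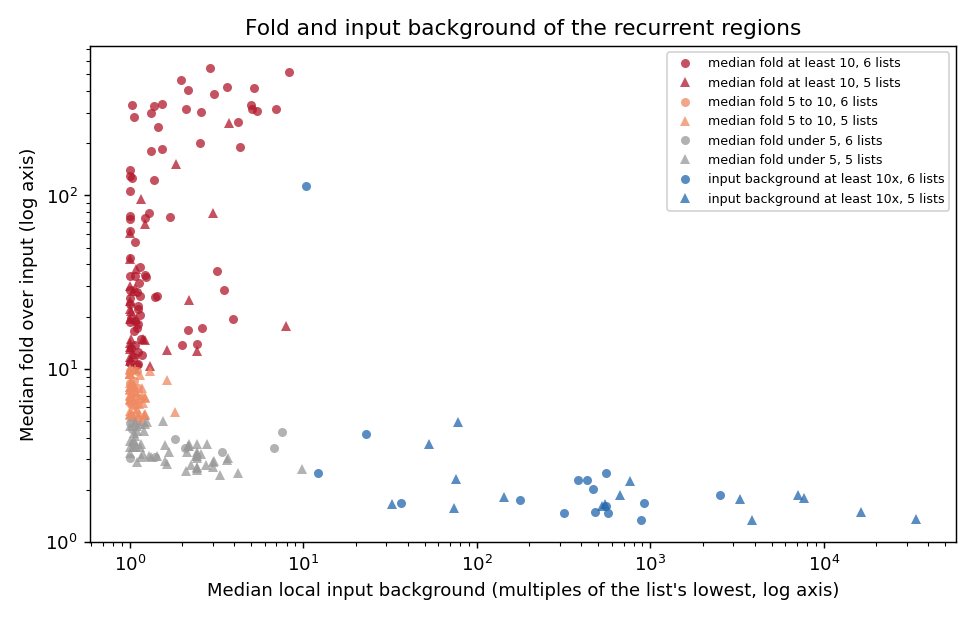
Median fold over input against median local input background, both on log axes, for the 260 regions; circles mark regions in all 6 lists, triangles those in 5, and colours the kind of region. Regions of high fold stand at backgrounds of 1 to 8.31 times the lowest level, and the 32 regions of high input run along the bottom right, apart from 1 at a median fold of 113.

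Summit positions were not part of the rule, which asked only that intervals touch. In the 106 regions of high fold the summits of all lists lay within a median of 30 bp (quartiles 13.3 and 80.8), in regions of a median width of 454 bp. The median range was 160 bp in the 57 regions of fold 5 to 10 and 258 bp in the 65 of fold under 5, whose median widths were 474 and 597 bp. In the 32 regions of high input it was 18 bp, at a median width of 364 bp. Regions found in 4 lists had a median range of 259 bp and those in 3 lists 261 bp, with median widths of 661 and 598 bp, against 90.5 bp and 469 bp for all 260 regions. Without the summits of replicate 1 at 6 months, the median range over the same regions was 19.5 bp at high fold, 139 bp at fold 5 to 10, 250 bp at fold under 5 and 16 bp at high input. More lists allow a wider range, and so do wider regions and shallower peaks.

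Summits of every list lay within 20 bp of each other in 61 of the 260 regions (23.5%), in 23 of 378 regions of 4 lists (6.08%) in 50 of 2420 regions of 3 lists (2.07%) and in 2311 of 26270 regions of 2 lists (8.80%), where only 1 pair of summits has to agree. Of the 61, 39 were regions of high fold, 19 were regions of high input, 3 had a fold of 5 to 10 and 0 had a fold under 5. With a limit of 10 bp the 61 became 36, and with 50 bp they became 107. Without replicate 1 at 6 months, 82 of the 260 had summits within 20 bp. In regions of high fold a list's summit lay a median of 3 to 5 bp from the region's median summit in 5 lists and 13.3 bp from it in replicate 1 at 6 months.

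**Figure D3:**
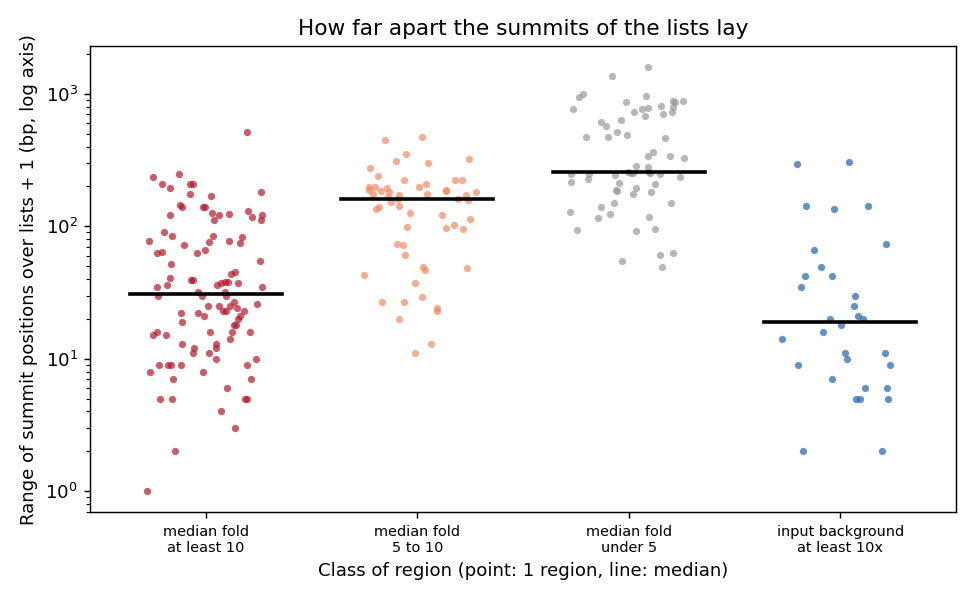
Distance between the outermost summits of the lists in each region, plus 1 bp, on a log axis, by kind of region; each point is 1 region and each line a median. The medians are 30, 160, 258 and 18 bp from left to right, before the added 1 bp.

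Regions that held a peak of 5 lists mostly lacked one in replicate 1 at 6 months. It was the list without a peak in 106 of the 148 regions, against 2 for replicate 2 at 6 months, 11 and 10 for 15 months, and 11 and 8 for 21 months. Its list of 79040 peaks was longer than that of replicate 2 at 15 months, with 29405, and shorter than all the rest, with 85987 to 106152. The part of list length was not tested. Replicate 1 at 6 months had a peak of its own within 1 kb in 7 of the 106 regions, and its nearest peak was a median of 9344 bp away. For the other lists this held in 1 of 2 at 6 months, 1 of 11 and 1 of 10 at 15 months, and 0 of 11 and 5 of 8 at 21 months. Their median distances were 3418.5, 11651, 53941, 9246 and 965 bp in the same order. Taken over the other 5 mice alone, 218 regions held a peak of every list.

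Replicate 1 at 6 months had a peak in more of the regions in which the other lists were strong, though the share did not rise at every step. Of 192 regions without high input that had peaks in all 5 other lists, it had a peak in 96. It had one in 30 of 32 regions whose median fold over the other 5 lists was at least 100, in 6 of 10 from 50 to 100 and in 24 of 33 from 20 to 50. It had one in 16 of 31 regions from 10 to 20, in 11 of 54 from 5 to 10 and in 9 of 32 under 5. The 96 regions without high input that it lacked had a median fold of 7.35, and the 96 found in all 6 lists had 26.4.

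The strongest region without a peak in that list was on chromosome 9, 32197937 to 32198540, where replicate 2 at 6 months had 1305 fragments, the mice of 15 months 1131 and 973, and those of 21 months 1287 and 1179. All 5 summits fell on the same base, 32198375. This region lay 67025 bp from the chromosome 9 region at 32265566, where replicate 1 at 6 months had 843 fragments and a fold of 86.3. The next, on chromosome 9 at 50269148 to 50269697, had 513 fragments in replicate 2 at 6 months, 344 and 360 in the mice of 15 months and 454 and 483 in those of 21 months, with summits within 9 bp. By fold within its list the first region ranked 27 in replicate 2 at 6 months, 16 and 13 in the mice of 15 months and 20 and 27 in those of 21 months. The second ranked 16, then 26 and 27, then 31 and 22. The age of 6 months was represented by 1 mouse in both.

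**Figure D4:**
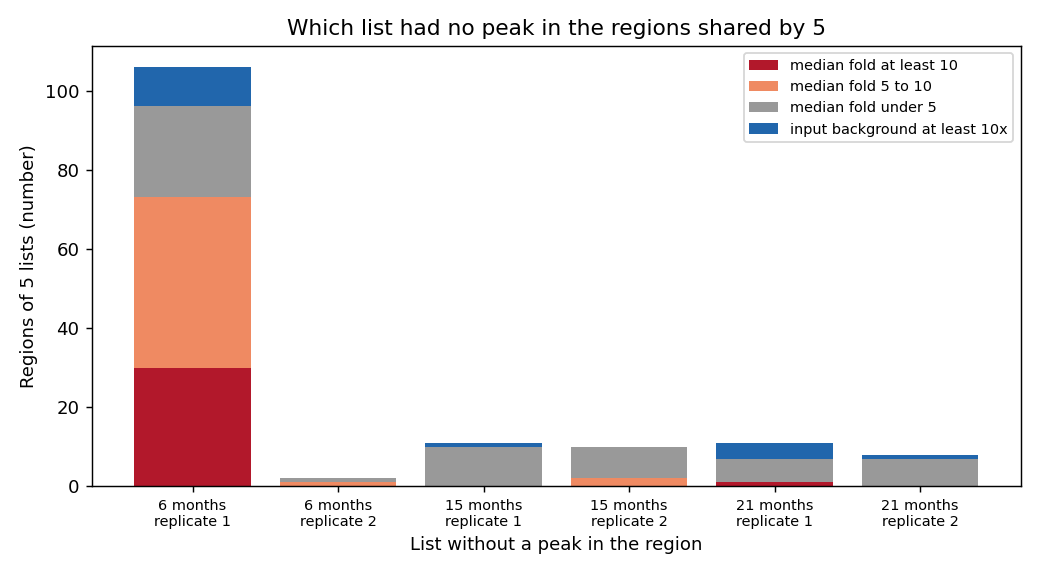
Number of regions of 5 lists by the list that had no peak there, coloured by kind of region. Replicate 1 at 6 months accounts for 106 of 148, 30 of them of high fold; the other 5 bars hold 2 to 11 regions, mostly of fold under 5.

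The 42 regions that lacked a peak in another list were weaker and wider than those that lacked replicate 1 at 6 months. Their median fold was 3.11 against 6.87, their median width 775 bp against 436 bp, and their median summit range 322 bp against 94 bp. In 14 of the 42 no peak reached q of at most 0.05, and in 5 every peak did. The 3 widest of the 260 regions were shallow too. On chromosome 3, 33824457 to 33826884 spanned 2428 bp with pileups of 8 or 9 fragments and summits 1352 bp apart, and it lacked replicate 1 at 6 months. On chromosome 13, 97865484 to 97867763 spanned 2280 bp with pileups of 5 or 6 fragments, and on chromosome 5, 12567213 to 12569434 spanned 2222 bp with pileups of 5 to 7 and summits 1590 bp apart. In such regions shallow peaks at different positions were joined into 1 region by overlap.

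Few strong regions lacked a list other than replicate 1 at 6 months. On chromosome 13, 46320022 to 46320324 had 6 and 43 fragments at 6 months, 26 and 36 at 15 months, 44 in replicate 2 at 21 months and no peak in replicate 1 at 21 months. It was the only one of these 42 with high fold. On chromosome 10, 113490318 to 113490677 had 10 and 17, 8, and 14 and 14 fragments and no peak in replicate 2 at 15 months, and q was at most 0.05 in all 5 lists. On chromosome 5, 139182029 to 139182380 had 5 and 15, 9, and 19 and 13 fragments and also lacked replicate 2 at 15 months. The first by rank without a peak in replicate 2 at 21 months, on chromosome 2 at 134156309 to 134156784, had only 7 to 11 fragments in each of the other lists, and on chromosome 1, 54069479 to 54070887 likewise had 7 to 11. For 15 months replicate 1, the first by rank were on chromosome 3, 43423522 to 43424295, with 7 or 8 fragments in each other list, and on chromosome 1, 98297325 to 98298481, with 9 to 12. The second region without replicate 2 at 6 months lay on scaffold JH584299.1, 665886 to 667292, with 5 to 7 fragments and no q of at most 0.05.

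The 32 regions of high input were of low fold, with 1 exception. Their median pileup was 690 fragments and their median fold 1.78, and q was at most 0.05 in every list with a peak in 27 of them. Among all peaks, such input was found in 0.0784% and 0.0961% in the lists of 6 months, 0.0754% and 0.211% in those of 15 months, and 0.0687% and 0.102% in those of 21 months. The exception was a region on chromosome 17 at 4676440 to 4676874, with a median fold of 113 and an input of 10.4 times the lowest level. Input of this kind was found in 12.3% of the 260 regions, in 5.56% of regions in 4 lists, in 0.744% of those in 3 lists and in 0.0142% of those in 1 list.

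Of these 32 regions, 24 had another within 20 kb and 8 did not. A group of 10 fell on the scaffold JH584304.1, and 8 fell within 24.2 kb near the start of chromosome 9, from 3014075 to 3038244. Of 237 gaps between neighbouring regions, 19 were under 20 kb, and in all 19 both neighbours were of high input, while the median gap was 5.07 Mb. On chromosomes, 12 of the 260 regions lay within 50 kb of the outermost peak of their chromosome in any list (4.62%, against 0.0701% of all merged regions), and all 12 had high input. The region on chromosome 12 at 119992419 to 119992701 and that on chromosome 18 at 90620346 to 90620712 ended at the last base covered by any peak of their chromosome. The first had pileups of 387 and 261 fragments at 6 months, 274 and 289 in the mice of 15 months and 275 in replicate 2 at 21 months, and both lacked replicate 1 at 21 months.

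The highest input was on chromosome 2 at 98497052 to 98497559, where the input stood at 33059 to 36068 times the lowest level and the pileups were 31396 in replicate 2 at 6 months, 33637 and 35511 in the mice of 15 months and 34394 and 34700 in those of 21 months. Its median fold was 1.35, and its summits lay within 1 bp. On chromosome 9, 3024081 to 3024580 had pileups of 17029, 18413, 18837, 18325 and 18468 in the same lists and folds of 1.41 to 1.64. A neighbour at 3020856 to 3021106 had pileups of 8672 to 10893 and folds of 1.60 to 2.00. Replicate 1 at 6 months had no peak in these 3 regions, but in the chromosome 9 region from 3025695 to 3025958 it had the highest pileup, 5313 against 2829 to 3916, at a fold of 1.74. At the other end, 44 of the 260 regions had a median input within 0.1% of the lowest level. One of them, on chromosome 7, 6436435 to 6436843 had input at 1.00 to 1.22 times the lowest level, with pileups of 14 to 18 fragments and folds of 8.22 to 10.2 in 5 lists. The share of regions with such low input among all merged regions is not given here. Relative to the lowest level, the median input was lower in regions of 1 list than in the 260 regions. The count of 44 is therefore not read as a feature of the 260 regions.

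In a small set of regions 1 mouse stood above all others. The fold of 1 list was at least 2.5 times that of the next in 10 regions, and in 9 of them the high list was replicate 1 at 21 months. In 8 of these 9 the pileup was also at least 2.5 times the next, and the ninth was the chromosome 19 region described above, where pileup was not raised. On chromosome 17, 79395092 to 79395809 had 95 fragments in that mouse and 17 in its age mate, against 14 in replicate 2 at 6 months and 5 and 12 at 15 months. The summit of replicate 1 at 15 months, with 5 fragments, lay 448 bp from the farthest of the other summits.

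On chromosome 12, 23527812 to 23528137 had 222 fragments in replicate 1 at 21 months and 59 in its age mate, with 43, 35 and 36 in the other lists with a peak. Also on chromosome 12, 27430714 to 27431167 had 182 against 27 to 51, and 57742394 to 57742975 had 425 against 27 to 149. On chromosome 1, 102521623 to 102522077 had 64 against 7 to 12. On chromosome 16, 27520943 to 27521221 had 180 against 40 to 62, on chromosome X, 149444453 to 149444675 had 120 against 18 to 27, and on chromosome Y, 6154406 to 6154648 had 300 against 73 to 108. In all 8 the pileup of the age mate was closer to those of 6 and 15 months than to that of replicate 1 at 21 months, and the median input was close to the lowest level, at 1.00 times. The tenth region, on chromosome 18 at 65560545 to 65560880, had a fold of 67.7 in replicate 1 at 15 months against 6.48 to 20.3, with a pileup of 153 against 38 to 100. This set was picked out once the values were known. At a ratio of 2 there were 13 such regions, and at 3 there were 6.

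**Figure D5:**
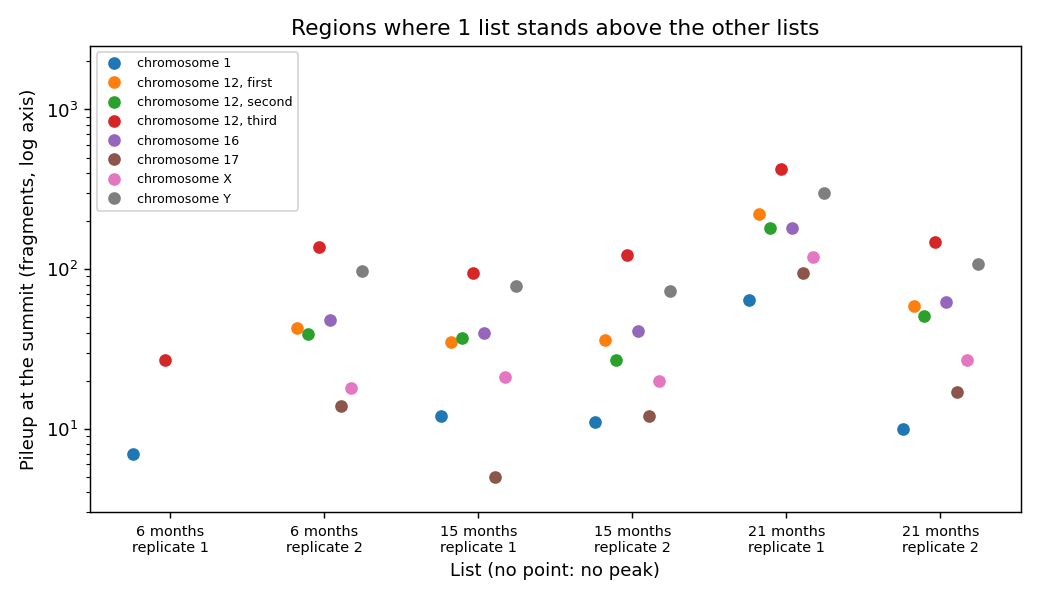
Pileup at the summit (fragments, log axis) in the 8 regions where both fold and pileup of replicate 1 at 21 months were at least 2.5 times those of the next list; each colour is 1 region and a missing point is a list without a peak. The points of replicate 1 at 21 months run from 64 to 425 and are the highest of each region.

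Across the regions in all 6 lists, the order of strength was similar in every mouse whatever its age. Spearman's rho of fold between 2 lists over the 112 regions was 0.93 to 0.98 for the 3 pairs of the same age and 0.93 to 0.98 for the 12 pairs of different ages. Without the 16 regions of high input it was 0.90 to 0.96 and 0.89 to 0.97 over 96 regions. Pairs with replicate 1 at 6 months had 0.89 to 0.91 over these 96, and pairs of the other 5 lists 0.94 to 0.97. These values are a description, since the regions share position and local input between mice.

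Ranked by fold among the same 96 regions, the mice of any 2 ages overlapped in 64 or 65 regions. Both mice of 21 months ranked above both of 6 months in 18 regions (18.8%) and below in 14 (14.6%). Between 6 and 15 months the older mice ranked above in 12 (12.5%) and below in 19 (19.8%), and between 15 and 21 months above in 17 (17.7%) and below in 14 (14.6%). The percentages are shares of these 96 regions, which leave out the 16 of high input among the 112 regions in all 6 lists. Ordering of 2 mice against 2 separates some regions even without any difference, so these counts are not read as differences between ages. Against replicate 2 at 6 months alone, both mice of 15 months ranked above in 27 (28.1%) and below in 33 (34.4%), and both of 21 months above in 32 (33.3%) and below in 28 (29.2%). A single mouse gives fewer overlaps than a pair. The rank of a region differed between the 2 mice of an age by a median of 6.5 places at 6 months, 4 at 15 months and 4 at 21 months. Pileups as deposited gave another picture between 15 and 21 months: both mice of 21 months were above both of 15 months in 59 of the 96 regions (61.5%) and below in 1 (1.04%). Against 6 months, the mice of 21 months had the higher pileups in 14 regions (14.6%) and the lower in 2 (2.08%), and those of 15 months the higher in 1 (1.04%) and the lower in 2 (2.08%). Against replicate 2 at 6 months alone, the mice of 21 months were higher in 15 regions (15.6%) and lower in 41 (42.7%), and those of 15 months higher in 1 (1.04%) and lower in 74 (77.1%). Between 15 and 21 months, and against replicate 2 at 6 months alone, the median pileups per list given above differ in the same directions. Those of 15 and 21 months all lie between the medians of the 2 mice of 6 months. The part of library size in these counts was not tested.

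Gene names in the deposited tables reached 2 of the 260 regions (0.769%, against 0.791% of regions of 1 list). Drd1, the dopamine D1 receptor, which raises cyclic AMP, was assigned the region on chromosome 13 at 54173594 to 54174416. It had 8 and 44 fragments at 6 months, 17 and 17 in the mice of 15 months and 19 and 31 in those of 21 months, with summits within 35 bp. Kif5c, a kinesin heavy chain that carries cargo along microtubules, was assigned the region on chromosome 2 at 49506109 to 49506370. It had 7 and 26, 16 and 13, and 26 and 19 fragments, with summits spread over 206 bp of its 262 bp. By fold within its list the Drd1 region ranked 874 and 103 in the mice of 6 months, 186 and 115 in those of 15 months and 162 and 112 in those of 21 months. The Kif5c region ranked 3230 and 156, 199 and 132, and 144 and 143 in the same order. In both regions the ranks at 15 and 21 months overlapped, and that of replicate 1 at 6 months was far lower. Elsewhere, peaks assigned to Drd1 had folds of at most 2.25 to 3.86 per list, and those assigned to Kif5c at most 2.21 to 3.55 in the 5 lists that had any.

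The lists of genes looked for held 151 genes, of which 32 were named at any peak and 2, Drd1 and Kif5c, at one of the 260 regions. Both belong to a list of calcium and neuronal signalling genes, of which 14 of 16 were named at any peak. For thyroid hormone response genes the text named 4 of 29 at any peak and 0 at these regions, and for the receptor's partners, coregulators and transporters 3 of 30 and 0. The counts were 2 of 35 and 0 for muscle contraction and myogenesis, 6 of 14 and 0 for atrophy and autophagy, 2 of 17 and 0 for blood, endothelial, immune and stromal cells, and 1 of 10 and 0 for liver genes. Only 0.775% of all peaks carried a name, so these zeros say nothing of binding at the genes.

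By chromosome, 244 of the 260 regions were on autosomes (93.8%, against 94.9% of all merged regions), 3 on X (1.15% against 1.99%), 2 on Y (0.769% against 2.85%) and 11 on scaffolds (4.23% against 0.246%). Regions of high fold were 106 of the 260 in all (40.8%). They were 11 of 15 on chromosome 13 and 10 of 12 on chromosome 12, but 4 of 23 on chromosome 1 and 7 of 29 on chromosome 2. These chromosomes are picked from the counts of all, the counts are small, and differences between chromosomes were not tested. The scaffold JH584304.1 had 39 merged regions in all, 10 of them in at least 5 lists and all 10 of high input.

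Just outside the rule, with a peak of 4 lists, the highest by rank was on chromosome 1 at 165586890 to 165587382. It had folds of 271 in replicate 2 at 6 months, 368 in replicate 1 at 15 months and 343 and 303 in the mice of 21 months, with pileups of 680 to 933 fragments. The next was on chromosome 10 at 17259397 to 17259839, with folds of 8.65 and 55.1 in the mice of 6 months, 97.0 and 69.0 in those of 21 months and no peak in either mouse of 15 months. The third, on chromosome 13 at 73668745 to 73669090, had folds of 19.8, 18.3, 39.6 and 28.3 in the lists of the chromosome 1 region. Just inside, the 148 regions of 5 lists had a median fold of 5.26, and the 378 of 4 lists had 3.14.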

How the data were processed

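Chromatin of cross-linked muscle was precipitated with an antibody to TRα and sequenced as read pairs, per the labels' protocols. MACS2 2.1.1.20160309, SAMtools 1.3.1, Trimmomatic 0.36 and HOMER were named in the submitters' processing notes, with GRCm39 and mm10 as builds; no aligner or option is named there. Scaffold names in the lists belong to GRCm39. Per the peak names, each list is 1 mouse against its own input. The authors deposited pileup as a signal, fold as a ratio, and p and q as −log10 values; the lowest −log10 p was 2.00 to 2.01. Positions are counted from 1.

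From these, peaks were merged by chained overlap (pandas 2.3.3, numpy 2.4.6, scipy 1.17.1) in a procedure tested on simulated data. Each list's best peak by p stood for it. Local input background was (pileup + 1) / fold − 1, relative to the list's lowest; a Poisson p computed from it was within 1% of the authors' deposited p in 100% of peaks with a computed value. The mouse, not the region, is the replicate, and no test was made. Regions were ranked by mean within-list percentile of fold. The regions named were the first 12 in all 6 lists, the first 2 lacking each list, the 3 extremes of input (high and low), width and summit range, those with a gene, and 3 of 4 lists. Protein accessions in text after 3987 of 491681 peaks gave gene names through a GRCm38.p6 table, for 3812 peaks. The regions, lists and rules were chosen with earlier results of these data known. Alternatives varied overlap, peak limits, list length and mice.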

Additional observations from a re-analysis of the deposited data

How the results depend on the processing

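With at most 1 list missing, leaving out 1 mouse gave 316 to 451 regions in place of 260, since 1 list fewer was required; the highest counts were without 15 months replicate 2 (451) and without 6 months replicate 1 (437). Regions of every list numbered 112, and 114 to 218 without 1 mouse, with 218 without 6 months replicate 1. Peaks with q of at most 0.05 gave 169 regions, and peaks with −log10 q of at least 5 gave 140, of which 61 were in all 6 lists; the 169 and the 140 all overlapped the 260. The other alternatives for these counts stayed within 1.5 times. The median summit range, 90.5 bp, was 83 bp with an overlap of 50 bp, 34 bp with summits joined within 100 bp, 35 bp at q of at most 0.05, 26 bp at −log10 q of at least 5, 77 bp with a pileup of at least 5, 54 bp with equal list lengths and 111 to 138 bp without 1 mouse; measured as the median distance to the median summit it was 8.5 bp. The share of regions of 5 lists without replicate 1 at 6 months was 71.6%. It was 93.5% at q of at most 0.05, 93.7% at −log10 q of at least 5 and 88.3% with equal list lengths. Without another mouse it was 54.8% to 57.4%, taken over regions that lacked 1 of the 5 lists left. That set is unlike the regions of 5 lists, so these shares are not directly comparable with 71.6%. High input and q in every list stayed within 1.5 times under their alternatives, at 35 to 44 and 148 to 214 regions without 1 mouse. No paired analysis was possible because the results come from no test. A peak near the cutoff rests on few fragments, so a list without a peak in a region shows only that nothing passed the cutoff there.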
